A study of Mus musculus with 2 samples.

Results

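The guanylate-binding proteins (GBPs) and the immunity-related GTPases (IRGs) are described here through 10 mouse genes, Gbp2, Gbp3, Gbp4, Gbp5, Gbp6, Gbp7, Igtp, Irgm1, Irgm2 and Iigp1, out of 23462 genes named on the array. They were chosen by name, and every non-control probe was taken whose transcript accession RefSeq assigns to one of these genes, which gave 12 probes, 3 of them for Irgm1 and 1 for each of the other 9 genes. All 12 probes were well above background on both arrays. There was 1 array of vehicle-treated cells and 1 of prednisolone-treated cells, both from splenic CD8 T cells of the strain C57BL/6 that were naive (low in CD44 and high in CD62L) at the start. Both cultures were activated for 2 days with plate-bound antibodies to T cell receptor β (3 μg/ml) and CD28 (1 μg/ml), with interleukin-2 at 10 ng/ml, and rested for 3 days in interleukin-2 on a new plate before RNA was taken on day 5. Prednisolone, a synthetic glucocorticoid, was present at 1 μM in one of them, and its presence is stated only for the activation step. The labels do not say whether cells of several mice were pooled. The comparison asks how transcript levels differed between the 2 cultures after the rest period. Whether the drug was still present during the rest is not stated. With 1 array per condition, no test, no p-value and no spread between cultures could be had, and every statement below compares these 2 cultures.

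GBPs and IRGs are large GTPases that interferon-γ, and to a lesser degree type I interferons, switch on in most cell types through the receptor-bound kinases JAK1 and JAK2, STAT transcription factors and induced factors such as IRF1. GBPs gather on vacuoles that hold parasites and on bacteria in the cytosol, break them open and help to start inflammasome signalling. Among the IRGs, Iigp1 is an effector that coats parasite vacuoles, whereas Irgm1, Irgm2 and Igtp (also called Irgm3) sit on the cell's own membranes and hold the effectors inactive there. Activated CD8 T cells make interferon-γ and also respond to it.

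RefSeq promoter windows (assembly GRCm38.p6) were found for 7 of the 10 genes. Gbp4, Gbp6 and Iigp1 had no entry. The 250 bases before each annotated start were searched on both strands for the core of the interferon-stimulated response element (ISRE, written GAAA, any 2 bases, GAAA), for the γ-activated site (GAS, TTCNNNGAA) and for a glucocorticoid response element (GNACA and TGTNC with any 3 bases between them). The ISRE core was present in all 7 genes, where 2.98% of all 32851 promoter windows held one. GAS was present in 4 of the 7, Gbp5, Gbp7, Igtp and Irgm2, where 7.02% of all windows held one. No window of these genes held the glucocorticoid element, which 0.387% of all windows had. A second annotated start of Gbp3 had none of the 3 motifs. No GAS match overlapped an ISRE match, while in Gbp3 and in Irgm1 a pair of ISRE matches overlapped each other. These are matches of letters and not shown to be bound.

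The 180 bases before the start are printed for 6 genes whose values on the arrays differ most in kind: Gbp2, which was lower with prednisolone, Gbp3 and Gbp5, which were higher, and the 3 regulator IRGs, which lay close to 0. They are read 5′ to 3′ along the gene, and capitals mark ISRE and GAS matches. The stretches are chr3:142620483-142620662, chr3:142559864-142560043 and chr3:142496754-142496933 on the plus strand, chr11:58199376-58199555 and chr11:58214797-58214976 on the plus strand, and chr11:48871421-48871600 on the minus strand.
Gbp2: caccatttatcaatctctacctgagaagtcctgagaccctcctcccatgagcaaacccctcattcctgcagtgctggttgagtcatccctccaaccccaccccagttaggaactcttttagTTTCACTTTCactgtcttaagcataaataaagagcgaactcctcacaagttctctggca
Gbp3: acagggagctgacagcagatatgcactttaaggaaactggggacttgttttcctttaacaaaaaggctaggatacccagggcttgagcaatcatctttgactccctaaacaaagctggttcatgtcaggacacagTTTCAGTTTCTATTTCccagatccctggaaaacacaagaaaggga
Gbp5: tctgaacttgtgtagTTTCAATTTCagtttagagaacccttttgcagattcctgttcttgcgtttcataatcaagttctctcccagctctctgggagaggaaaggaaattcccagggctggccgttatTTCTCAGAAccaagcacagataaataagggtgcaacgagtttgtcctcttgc
Igtp: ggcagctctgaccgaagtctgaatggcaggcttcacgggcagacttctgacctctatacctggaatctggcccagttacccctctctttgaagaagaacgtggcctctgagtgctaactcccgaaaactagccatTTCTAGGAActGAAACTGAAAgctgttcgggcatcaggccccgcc
Irgm1: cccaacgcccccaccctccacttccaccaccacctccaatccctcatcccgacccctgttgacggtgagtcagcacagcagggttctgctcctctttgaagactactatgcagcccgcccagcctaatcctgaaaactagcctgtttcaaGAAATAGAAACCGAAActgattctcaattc
Irgm2: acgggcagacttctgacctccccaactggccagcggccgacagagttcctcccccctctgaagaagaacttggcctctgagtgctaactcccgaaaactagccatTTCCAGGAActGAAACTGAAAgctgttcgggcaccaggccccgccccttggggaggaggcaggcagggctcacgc
The ISRE core of Gbp2 began 59 bases before the start and that of Gbp5 lay farther out, at 165 bases. Igtp and Irgm2, which are next to each other in the RefSeq gene order, shared an identical run of 38 bases, which ends with the first 3 bases of the GAS match in each. In both of these genes a GAS match stood just before the ISRE core. Among the printed stretches, those of the lower gene Gbp2 and of the higher genes Gbp3 and Gbp5 each held an ISRE core. Since all 7 genes with a window held one, its presence could not tell any of them apart. The lowest genes, Iigp1 and Gbp6, had no window, and a link between motifs and differences was not tested.

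**Figure D1:**
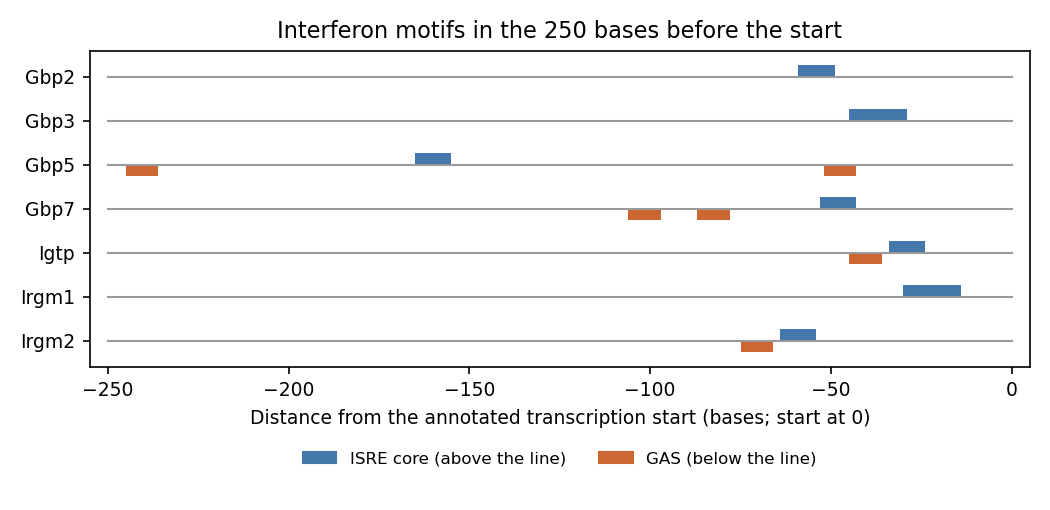
Positions of ISRE cores (blue, above each line) and GAS matches (orange, below) in the 250 bases before the annotated start of the 7 genes with a RefSeq promoter window; the horizontal axis is the distance from the start in bases, and for Gbp3 the first of its 2 starts is drawn. Every gene has an ISRE core, and overlapping matches appear as 1 longer block in Gbp3 and Irgm1.

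With prednisolone the family did not move as a block. Iigp1 was 2.28-fold lower and Gbp6 2.05-fold lower, Gbp2 was 1.76-fold lower, Gbp3 was 1.59-fold and Gbp5 1.32-fold higher, and the other 5 genes lay no more than 1.12-fold apart. Of the 9 genes with a spot free of outlier flags, 2 were at least 2-fold lower and 0 at least 2-fold higher, beside 7.82% and 6.87% of the 13135 genes with a value. With flagged spots kept, which adds Igtp, the counts were 2 and 0 of 10, beside 7.94% and 6.91% of 14131 genes. Their median difference was -0.12 on the log2 scale, with 5 below 0 and 4 above (50.1% of all genes with a value were below 0), against a median of 0.0014 over the 11968 genes measured on both arrays. The SD of the 9 differences was 0.65, next to 0.73 over all measured genes. These counts are descriptions, and no test set them apart from the background.

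Values are given first as processed signal, the background-corrected brightness of the spot in intensity units. Levels are then the log2 of that signal minus the array's 75th percentile (400.4 units for vehicle and 386.9 for prednisolone), and differences are prednisolone minus vehicle. The ± beside a difference is the scanner software's error carried to the log2 scale. For all 12 probes the software put that error at 10.0% of the signal on each array, so it is nearly the same for every bright spot and measures neither the scatter between spots nor that between cultures. A second guide is the agreement of different probes for 1 gene: among 3912 genes with at least 2 usable probes, the range between probes had a median of 0.17 (log2) with a 90th percentile of 0.68.

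**Figure D2:**
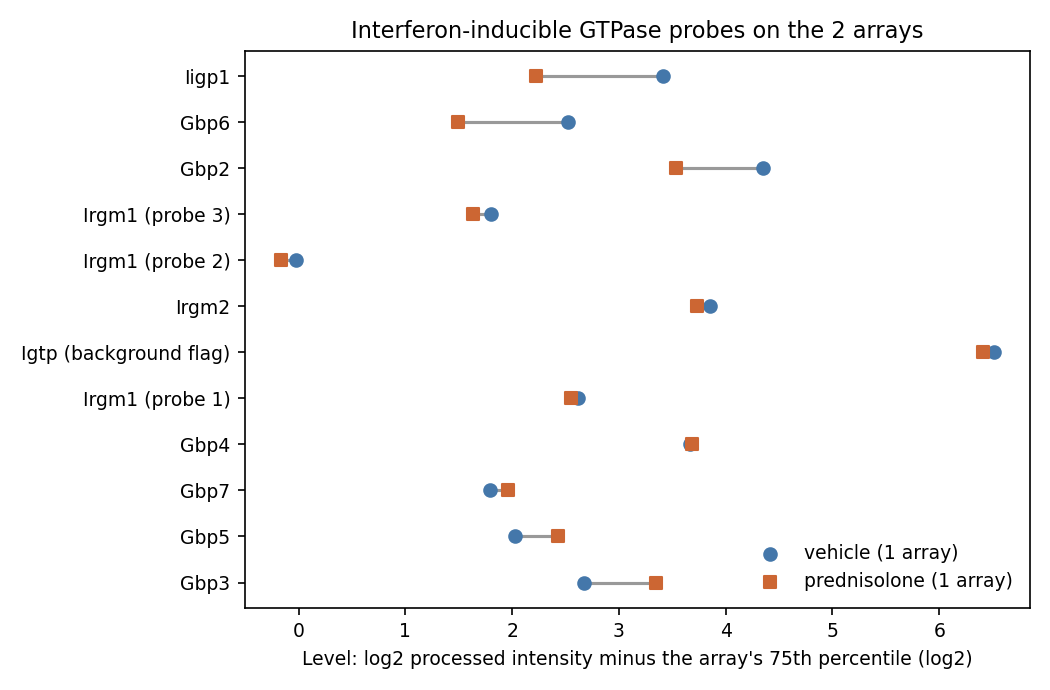
Scaled log2 level (horizontal axis, log2 intensity minus the array's 75th percentile) of each of the 12 probes on the vehicle array (circles) and the prednisolone array (squares), ordered by their difference; levels of different probes are not on a common scale. Iigp1, Gbp6 and Gbp2 lie visibly lower with prednisolone, Gbp3 and Gbp5 higher, and the 3 Irgm1 probes, numbered from the highest difference down, show nearly the same small gap.

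Iigp1, the effector IRG, had a processed signal of 4268 with vehicle and 1809 with prednisolone. Its level went from 3.41 to 2.23, a difference of -1.19 ± 0.20, and 95.5% of all measured genes had a higher difference. It was the lowest of the 10 genes. Its difference was larger than that 90th percentile, but it rests on 1 probe. RefSeq's gene order places it near 2 related genes, and those differed in size: Gm4951 was -1.48 ± 0.15, with both of its probes at least 2-fold lower (-1.64 and -1.32), while F830016B08Rik was -0.03 ± 0.20.

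The 3 regulator IRGs were nearly equal in the 2 cultures. Igtp had a signal of 36585 with vehicle and 32838 with prednisolone, a difference of -0.11. Its local background carried an outlier flag, which was counted if present on either array. Igtp is therefore left out of the counts over 9 genes, although its spot itself was not flagged. For dim spots of the vehicle array the software had subtracted a median of 35.1 units, which was not the local background itself. Irgm2 went from 5795 to 5140 units, or -0.12 ± 0.20. Irgm1, which is known to protect expanding CD4 T cells from death driven by interferon-γ, was measured by 3 probes, with signals of 2450, 1397 and 395 for vehicle and 2264, 1199 and 344 for prednisolone. Their differences were -0.06, -0.17 and -0.15, and their mean was -0.13 ± 0.12. All 3 regulator genes were within the error of 0 or, for Irgm1, barely beyond it.

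Among the GBPs of the cluster on chromosome 3, Gbp2 was lower and its neighbours were not. Gbp2, which carries a lipid anchor at its end that places it on membranes, had 8162 units with vehicle and 4483 with prednisolone, a difference of -0.81 ± 0.20. A higher difference was seen in 90.5% of the measured genes. Gbp3 went the other way, from 2559 to 3932 units (0.67 ± 0.20), and 88.2% of measured genes had a lower difference. Gbp5, another lipid-anchored GBP that has been tied to the NLRP3 inflammasome, went from 1635 to 2089 units (0.40 ± 0.20). In size, Gbp2 was beyond the 90th percentile of the range between probes (0.68), Gbp3 just inside it and Gbp5 well inside. Each of these genes rests on 1 probe. Gbp7, which has been linked to assembly of the phagocyte oxidase, went from 1383 to 1503 units (0.17 ± 0.20), inside the error. Within this cluster Gbp3 gained 2.80-fold on Gbp2 between the arrays, a ratio that scaling by 1 constant per array cannot alter.

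In the cluster on chromosome 5, Gbp6 went from 2301 to 1086 units (-1.03 ± 0.20) while Gbp4 had 5090 and 4975 units (0.02 ± 0.20). Gbp6 lay just past the 2-fold line, and Gbp4 was the gene closest to 0 of the 10. The other genes of this cluster, which belong to the list of related GTPases, were nearer to Gbp6: Gbp8 was -1.12 ± 0.14, with probes at -1.23 and -1.01, and Gbp9 was -0.78 ± 0.21. Gbp10, measured only by a spot with a flagged background, was -0.69. Gbp6 and Gbp10 are close in sequence, and whether 1 probe reads RNA of both was not tested, as the probe sequences were not used here. Of the 4 genes of this cluster with an unflagged value 3 were below 0, compared with 1 of 4 in the cluster on chromosome 3.

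**Figure D3:**
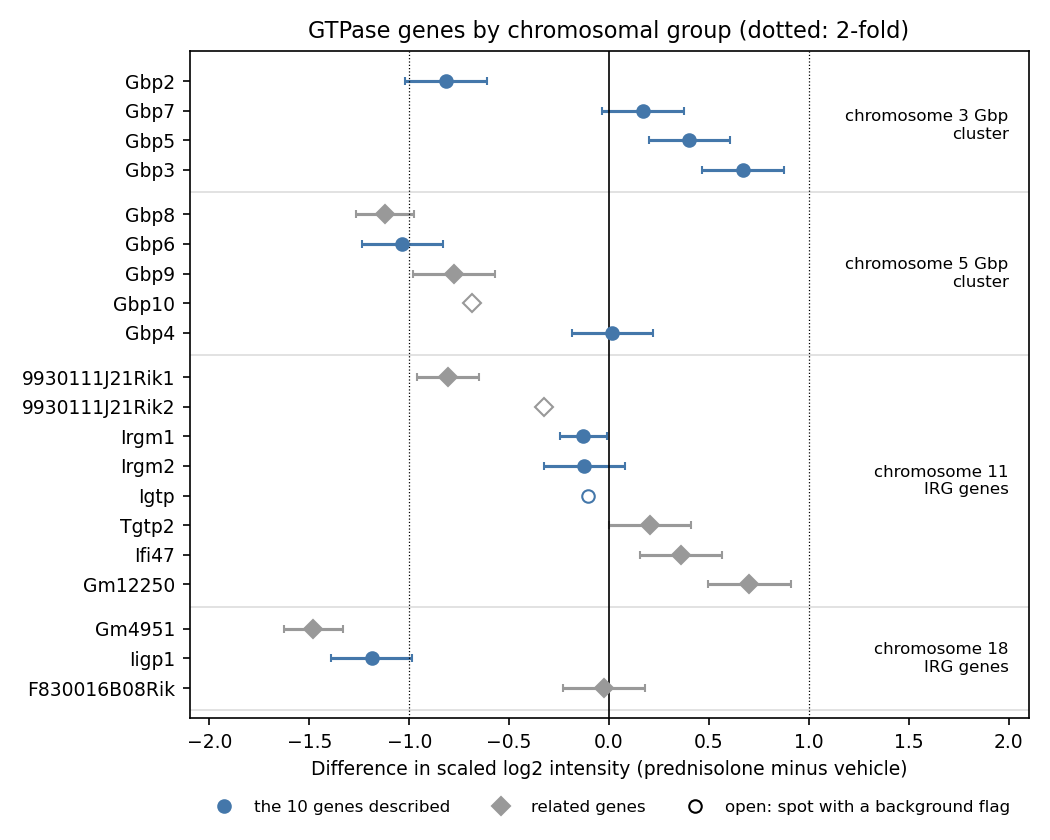
Difference in scaled log2 intensity (prednisolone minus vehicle) of GBP and IRG genes, grouped by chromosome; circles are the 10 genes described, diamonds related genes, bars the software's error and open symbols spots with a flagged background. On chromosome 3 Gbp2 (-0.81) and Gbp3 (0.67) lie on opposite sides of 0, and on chromosome 5 Gbp4 (0.02) stands apart from Gbp6, Gbp8 and Gbp9.

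A list of 21 further genes of the GBP, IRG and related families was grouped as other interferon-inducible GTPases. Irgc and Irgq are on it as IRG relatives, and induction by interferon was not measured here for any gene. All 21 are named whether or not the naming rule called for them. The list had 11 with a value, of which 2 were at least 2-fold lower (Gbp8 and Gm4951) and 0 higher. The count of 2 became 1 with spike-in scaling and 3 with no filter on dim probes. Its measured median was 0.03 over 10 genes (-0.18 with flagged spots kept), and 6 of the 11 were below 0. The effector IRGs Tgtp2 (0.21 ± 0.20) and Ifi47 (0.36 ± 0.20), both bright, were a little higher, in contrast to the effector Iigp1. The difference of Tgtp2 was about the size of its error, and whether its probe also reads RNA of Tgtp1 was not tested. Gm12250 was 0.70 ± 0.21, and 1.24 when a further probe with a flagged background was kept, which made it the list's 1 gene at least 2-fold higher. The interferon-inducible giant GTPase gene Gvin1 was 0.08 ± 0.20. Irgq was 0.47 ± 0.18, with probes at 0.10 and 0.85, and 9930111J21Rik1 was -0.81 ± 0.15, with probes at -1.03 and -0.58. Gm12185 was at least 1.38-fold lower, since it was well above background with vehicle only. Gbp2b was not well above background, 9930111J21Rik2 (-0.33) had only a spot with a flagged background, and Gbp11, Tgtp1, Irgc, Gvin2, Gvin3, Mx1 and Mx2 had no probe with a matching accession. The genes of this list thus spread on both sides of 0 as the 10 did.

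Upstream of the family, the ligand gene Ifng went from a level of 0.39 to -2.43, 7.04-fold lower with prednisolone (-2.82 ± 0.21). The type I interferon genes Ifnb1, Ifna4 and Ifne were not well above background. All 5 measured receptor genes were below 0, from -0.98 to -0.60, with a median of -0.72, and 0 of them reached 2-fold (1 under 4 of the 13 alternatives). Ifngr1, the ligand-binding chain of the interferon-γ receptor, was -0.60 ± 0.20, and Ifngr2, its signalling chain, was -0.77 ± 0.20. By their gene means the receptor chains were thus all lower, while the ligand differed far more. The 3 probes of Ifnar1 disagreed in size, from -1.23 to -0.07 around a mean of -0.72.

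All 5 measured genes of the JAK and STAT list were below 0, with a median of -0.50, and 2 were at least 2-fold lower (1 after normexp, 0 with spike-in scaling and 1 with a stricter filter on dim probes). Stat2, which acts in type I interferon signalling, was -1.15 ± 0.20, and Stat3 was -1.23 ± 0.23 at a dim spot. With flagged spots kept Stat3 was -1.03, which adds a far brighter spot that went from 6497 to 3560 units. Irf9, which completes the complex that binds the ISRE, was -0.41 ± 0.20 and Jak2 was -0.50 ± 0.15. Jak1 had only a spot with a flagged background, at -0.48.

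Of the 6 measured transcription factors that interferons regulate, 5 were below 0 and 1 was at least 2-fold lower, Irf8 (-2.07 ± 0.20, 4.21-fold). Irf1, a direct driver of GBP genes, had only spots with a flag and was -0.70 with them. Among 7 inhibitors the pattern was split. Socs1, which blocks JAK kinases, was 2.25-fold higher (1.17 ± 0.20), Usp18, which restrains the type I receptor, was 8.96-fold lower (-3.16 ± 0.23), and the other 5 were within 2-fold.

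Non-GTPase targets of interferon-γ had 12 genes with a value, 9 of them below 0, with a median of -0.37. At least 2-fold lower were Tap1, a peptide transporter gene (-1.21 ± 0.14), and Cd274, which encodes PD-L1 (-1.05 ± 0.20), and 0 were higher. The count of 2 became 1 after normexp, 1 with array median scaling, 1 with the deposited value table and 0 with spike-in scaling, and 3 with no filter on dim probes. The antiviral genes of the type I list had 24 with a value, 21 of them below 0, with a measured median of -0.84. Of these, 7 were at least 2-fold lower, but 1 after normexp and 4 each with spike-in scaling, array median scaling, a stricter filter on dim probes and the deposited value table. The median was -0.53 after normexp. The 7 included Dhx58 (-2.37 ± 0.21), Ifit3 (-1.36 ± 0.30), Ifit1 (at least 2.40-fold) and Rsad2 (at least 2.68-fold). Higher by that much were 2, Cmpk2 (1.93 ± 0.21) and Isg20 (1.70 ± 0.14). Both target lists had lower medians than the 9 GTPases with an unflagged spot (-0.12), but no test of that gap was possible.

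**Figure D4:**
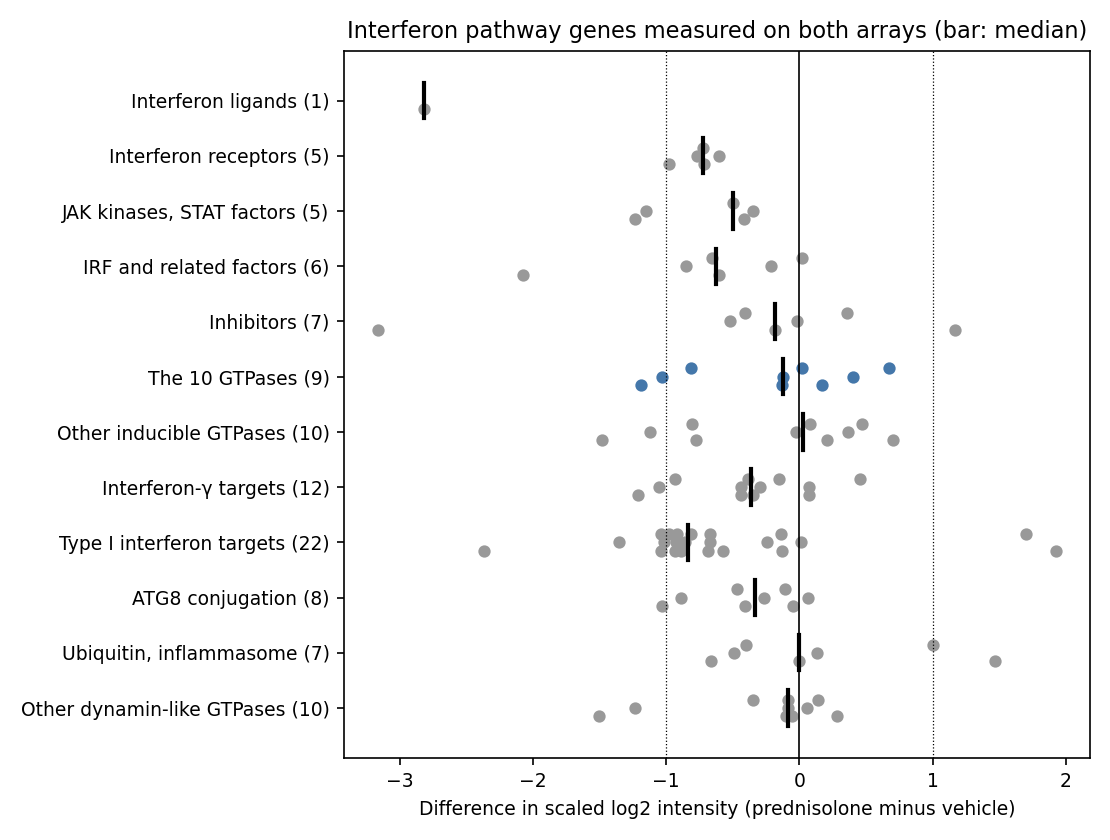
Difference in scaled log2 intensity (prednisolone minus vehicle) of the genes measured on both arrays in each interferon pathway list; each point is a gene, the bar is the list's median and the number of genes is in parentheses. The 10 GTPases (blue, 9 with an unflagged spot) run from -1.19 to 0.67 around a median of -0.12, while all measured receptor, JAK and STAT genes lie below 0.

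The identity and treatment of the cells were checked on lists of markers. Of 9 CD8 T cell markers 7 had an unflagged value and 0 were 2-fold apart, with Cd8a at -0.01 ± 0.14 and Cd3e at -0.42 ± 0.20. Their median was -0.34, with 5 below 0 and 2 above. The lowest was Cd247 at -0.95, with probes at -1.42 and -0.47. The glucocorticoid-induced genes Fkbp5 (2.57 ± 0.14) and Tsc22d3 (1.45 ± 0.14) were higher with prednisolone, as were 5 of 6 measured genes of that list by at least 2-fold. With flagged spots kept 6 of 8 were, which adds Sgk1 (3.60), while Zfp36, from flagged spots only, was lower (-0.36). Macrophages and dendritic cells also express GBPs and IRGs. Of 11 of their markers, 5, Lyz2, Adgre1, Itgax, C1qa and H2-Aa, were not well above background, and 3 of the 6 with a value were at least 2-fold lower with prednisolone (Cd68 at -2.22, H2-Eb1 at -1.99 and Cd74 at least 4.61-fold). Others of the list were not lower, Csf1r at 0.23 ± 0.21 and Itgam at 0.02 ± 0.22. The summed signal of the list was 16981 units with vehicle and 10518 with prednisolone. Most of it came from H2-Ab1, whose brightest probe went from 12271 to 6508 units (-0.91 ± 0.12 over 3 probes). Of 4 B cell markers, Ms4a1 and Cd79a were not well above background and the summed signal was 1084 and 1642 units. Nearly all of that sum came from Cd79b (1063 and 1623 units), which had only flagged spots. Of 4 NK cell markers, Ncr1 was not well above background, Klra8 was at least 4.51-fold higher with prednisolone, and the sum was 79.9 and 142 units. CD4 T cell markers summed to 1441 and 1073 units, with Cd4 at 0.08 ± 0.20, Foxp3 at -0.75 ± 0.22 and Zbtb7b, from a flagged spot only, at -0.93. The part of any of these cells in the GTPase values was not tested, and in bulk RNA fewer cells of a type and less RNA per cell cannot be told apart.

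The scaling of the arrays decides where 0 lies. Over 8 spike-in probes, RNA added in known amounts, the mean difference was -0.24, so that scaling on them added 0.24 to every gene and moved the share of higher genes among all those at least 2-fold apart from 46.8% to 68.0%. It put Iigp1 at -0.95, Gbp6 at -0.80 and Gbp2 at -0.58, left 0 of the 9 genes at least 2-fold lower, and placed Igtp (0.13), Irgm1 (0.11) and Irgm2 (0.12) above 0. Any gene between -0.24 and 0 moves above 0 with it, among them F830016B08Rik, Nlrc5, Pias1, Rtp4 and Bst2, while the receptor, JAK and STAT genes stay below. Gbp4 was below 0 in 3 of 13 alternatives, at -0.06 in the lowest. Iigp1 stayed at least 2-fold lower in 12 of 13 alternatives and Gbp6 in 9 of 13. Gbp6 was inside 2-fold after normexp (-0.97), with array median scaling (-0.98), the deposited value table (-0.97) and spike-in scaling. Gbp4, Gbp6 and Iigp1 each have 1 probe, so alternatives on flags, the dim-probe filter or the probe summary could not move their values. The counts out of 13 therefore include outcomes fixed beforehand. Iigp1 and Gbp3 were 1.86 apart (3.63-fold). Each has 1 unflagged probe, so of the alternatives only normexp (1.82) and quantile normalization (1.86) could move that gap.

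**Figure D5:**
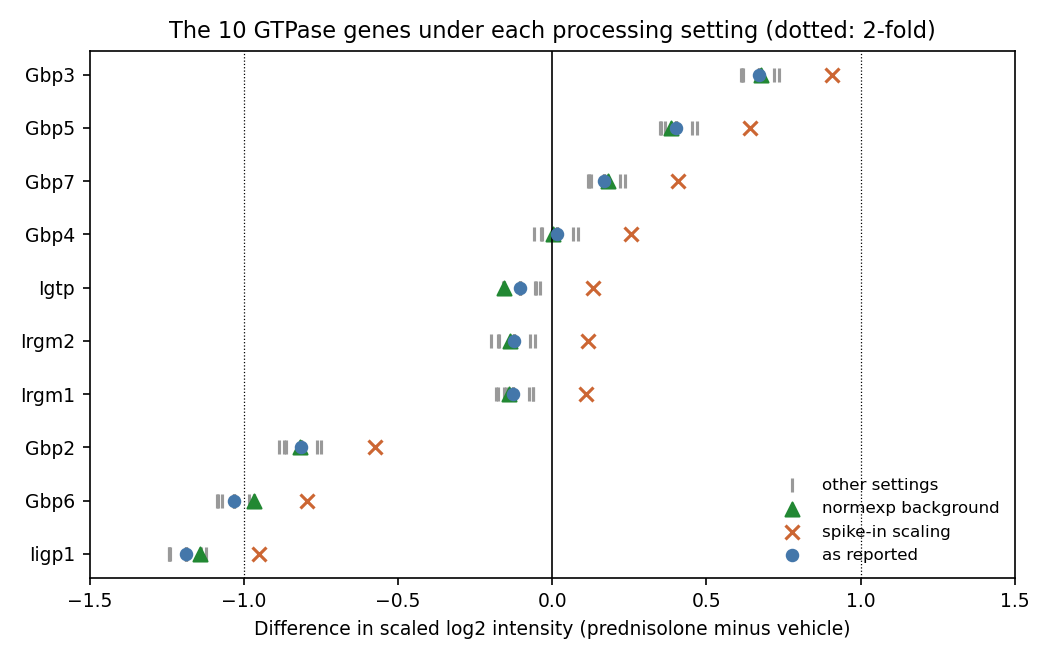
Difference (prednisolone minus vehicle, scaled log2 intensity) of the 10 genes under the reported setting (circles), spike-in scaling (crosses), normexp background correction (triangles) and the other settings (ticks); dotted lines mark 2-fold. Spike-in scaling shifts all genes by 0.24 together, and under it Iigp1 (-0.95) and Gbp6 (-0.80) lie inside 2-fold.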

How the data were processed

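Total RNA (100 ng) of 2 cultures was labelled with Cy3 and hybridised to 1-colour Agilent arrays, per the labels. The deposited scanner files hold linear intensity per spot from Agilent Feature Extraction 12.0.3.1, background-subtracted and detrended within the array, and name build mm9, per the file headers. A second deposited table of intensity values equals that signal times 0.792 (vehicle) and 0.858 (prednisolone); why these constants were used is not stated. Each array had 59305 non-control spots; 53.5% were well above background on each and 0 were saturated. The number of arrays limits the precision.

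Log2 intensity minus the array's 75th percentile was used (Python 3.11.15, pandas 2.3.3). Spots with any outlier flag were left out (4270 and 5291). Probes well above background on both arrays were averaged per gene. Where 1 array alone was, a bound was taken against the higher of the dim spot's own value and the lowest level well above background. Accessions without version were matched to RefSeq (GRCm38.p6). At least 2-fold was counted, without a test. The procedure was run on a simulated second array, made from the vehicle array with known differences and random noise added. That checked the arithmetic only, since calls above background were copied and no variation between cultures was simulated. Alternatives changed background correction (limma 3.58.1, normexp, offset 50, on median signals, as mean signals were not used here), scaling, flags, dim-probe filter, probe summary and table.

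The 10 genes and the lists were chosen with earlier results of these data known. The text names all 10, list members at least 2-fold apart (at most 4 per direction) and a set of pathway and marker genes such as Ifng and Socs1. Other names (Csf1r, Itgam, H2-Ab1, Cd79b, Zfp36, Foxp3, Zbtb7b, Ifnar1 and Cd247 among them) were chosen after their values were seen. Some genes of these lists are not reported here.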

Additional observations from a re-analysis of the deposited data

How the results depend on the processing

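The count of 2 genes at least 2-fold lower became 1 after normexp background correction, 1 with array median scaling, 1 with the deposited value table and 0 with spike-in scaling. Spike-in scaling also took the genes below 0 from 5 to 3 and their median from -0.12 to 0.12. In the other alternatives these counts stayed within 1.5 times, and 0 of the 9 genes was at least 2-fold higher in any. Of 130 values of the 10 genes under 13 alternatives, 120 moved by less than the software's error, and the other 10 were all under spike-in scaling. Many of the 120 could not move. For the 9 genes with 1 probe, changes of flags, dim-probe filter or probe summary left the value as it was. Igtp was taken with its flagged spot in every alternative. Ifng was -2.13 and Usp18 -1.96 after normexp. Over all genes, 1027 were at least 2-fold lower and 902 higher, which became 434 and 429 after normexp, 671 and 1429 with spike-in scaling, 451 and 445 with a stricter filter on dim probes, and 1701 and 1460 with no filter. Keeping spots whose flag lay on the background alone was an alternative chosen after seeing the data. Under the stricter filter Ifng and Usp18 were too dim to have a value. No paired analysis was possible because each group has 1 array. No replicate could be left out for the same reason, and 9 of the 10 genes rest on 1 probe.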

Other observations

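Lists of proteins that work with these GTPases showed mostly small differences between the 2 cultures. The conjugation system of the ATG8 family, which guides GBPs and IRGs to vacuoles, had 8 of 10 genes with an unflagged value, a median of -0.34 and 1 gene at least 2-fold lower, Atg12 (-1.03 ± 0.20), a count that became 0 with spike-in scaling, array median scaling and the deposited value table. With flagged spots kept its median was -0.19 over 10 genes. Among ubiquitin and inflammasome partners the caspase gene Casp1 was 2.77-fold higher with prednisolone (1.47 ± 0.20). Casp4, whose product senses bacterial lipopolysaccharide once GBPs expose it, was higher by 1.00 ± 0.20 (log2), a hair under the 2-fold line. Aim2, a DNA sensor gene, was -0.67 ± 0.15, with probes at -0.74 and -0.59, and Gsdmd, which encodes the pore former gasdermin D, was -0.49 ± 0.14. Pycard, the inflammasome adaptor gene, had only flagged spots and was 0.99, from 8537 to 16371 units. The list's count of 1 at least 2-fold higher became 2 with spike-in scaling, array median scaling and the deposited value table, and its median was -0.0040 over 7 measured genes.

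Other GTPases of the dynamin superfamily, which are not known as interferon-induced, had 10 measured genes with a median of -0.09, beside -0.12 for the 9 GBP and IRG genes with an unflagged spot. At least 2-fold lower were Ehd3 (-1.51 ± 0.20) and Dnm1 (-1.24 ± 0.20), the latter -0.61 with a flagged probe kept. That count of 2 was 1 with flagged spots kept and 1 with spike-in scaling. The atlastin genes, the nearest relatives of GBPs, were -0.05 ± 0.21 for Atl2 and -0.35 ± 0.14 for Atl3. Casp4, Aim2, Gsdmd, Pycard, Atl2 and Atl3 were named after their values were seen.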
